A study of Mus musculus with 12 samples.

Results

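The genes described here encode receptors with which immune cells sense extracellular nucleotides and small metabolites: Adora2a, Adora2b, P2ry6, P2ry14, P2rx4, P2rx7, Gpr84, Gpr183, Hcar2 and Ffar2. A gene was taken as measured where the platform annotation pairs a probe set with that gene alone. Of the 10 listed genes, 8 were measured in this way, each by 1 probe set, among 22180 genes in all. Adora2a and Adora2b, which encode adenosine receptors, were not analysed here.

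Cells release ATP, UDP and UDP-glucose when they are stressed or die, and surface enzymes trim these nucleotides step by step to nucleosides. G protein-coupled P2Y receptors and ATP-gated P2X ion channels report them to neighbouring cells, and P2X7 is best known in myeloid cells for driving potassium efflux and inflammasome activation. A further set of G protein-coupled receptors responds to products of metabolism and diet: medium-chain fatty acids at GPR84, short-chain fatty acids at FFAR2, beta-hydroxybutyrate and niacin at HCAR2, and dihydroxylated cholesterol at GPR183. P2rx4 and P2rx7 encode channels, not G protein-coupled receptors, and stand beside the others for contrast.

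The 12 arrays hold RNA of mouse dendritic cells, which present antigen to T cells. Marrow was cultured with 20 ng/ml of GM-CSF, a myeloid growth factor, and the semi-adherent cells were taken on day 7. The mice were 8 weeks old, on a C57BL/6 background and labelled male. They were either wildtype or carried Arc/Arg3.1 –/–, a deletion of Arc, a gene studied mainly for its part in synaptic plasticity. Cells of each genotype received medium alone or 100 ng/ml of bacterial lipopolysaccharide (LPS). The exposure lasted 30 min, and after washing a further 1 h in plain medium followed. The resulting 4 groups of 3 arrays were wildtype untreated, wildtype LPS, knockout untreated and knockout LPS, and no group differs from another in anything else the labels name. Replicates are labelled as biological, but whether each came from its own animal is not stated, so a p-value reflects only how far these cultures differed. The values are log2 signals, so a difference of 1 is a doubling of signal.

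Several arrays stood apart. Across 6440 well-measured genes, any pair of the 3 untreated wildtype arrays had differences with an SD of 0.10 to 0.11 log2 units, against 0.19 to 0.44 for the other 9 pairs of replicates. Their mean was therefore counted as 1 sample in the main test, which then had 10 samples, and results with 12 separate samples are given where the call differs. Although the labels say male, 9 arrays had Xist at 11.22 to 11.92, and 3 arrays (wildtype LPS replicate 1, knockout untreated replicate 2 and knockout LPS replicate 2) had Xist at 5.63 to 5.76 and Y-linked genes at a mean of 8.83 to 9.24. The median of 78 small RNA genes was 9.73 to 9.87 on 4 arrays and 10.44 to 11.04 on 8. The 4 low arrays were replicates 2 and 3 of wildtype LPS and of knockout LPS. Arc itself was at 9.21 to 9.62 on the 6 wildtype arrays and at 7.68 to 8.05 on the 6 knockout arrays.

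The labelled cell type was compared with marker genes. All 10 measured markers of conventional dendritic cells had group means above the array's typical unnamed probe set, whose median was 5.89 to 6.10. They included Itgax, Flt3, Zbtb46, the class II genes H2-Ab1 and H2-Aa, and Xcr1, whose group means were only 6.24 to 6.55. The same held for all 9 macrophage, 6 inflammatory monocyte and 4 B cell markers, the last at 6.20 to 6.78. Lying above the unnamed median therefore does not tell these cell types apart. Markers of other myeloid cells were present as well, and some of them moved with LPS. The linear signals of 13 neutrophil genes summed to between 10439 and 10636 in untreated wildtype, 3476 and 6004 in LPS-treated wildtype, 8524 and 10669 in untreated knockout and 4416 and 4917 in LPS-treated knockout cells. Of these 13 genes, 1 fell with LPS in wildtype and 6 fell in knockout cells, with list medians of -0.96 and -0.93 on the log2 scale, against -0.01 and -0.00 for all genes. Over all genes 0.234% fell in wildtype and 2.93% in knockout cells, which is the background for this and the next lists. With untreated wildtype counted as 1 sample, the wildtype test was less precise. The median half-width of the 95% interval over all genes was 0.42 in wildtype and 0.30 in knockout cells. Counts of calls therefore do not compare the genotypes. The antimicrobial peptide gene Camp was the neutrophil gene below the unnamed median, and only in the LPS groups. Of 6 inflammatory monocyte genes, 1 fell in wildtype and 3 fell in knockout cells, and their summed signal was 6750 to 7147, 2336 to 3242, 6236 to 6568 and 2008 to 2816 in the same 4 groups. Of 9 macrophage genes, 0 passed in wildtype cells and Lyz2 fell in knockout cells. Of 4 eosinophil genes, Prg2 fell in both genotypes. Some markers rose: Hdc, of 7 mast cell and basophil genes, in knockout cells, and of the 10 dendritic cell genes Zbtb46 in both genotypes and Irf4 in knockout cells. Others of these lists had lower means with LPS in both genotypes, none past the threshold: Cpa3, Mcpt8, Ms4a2 and Fcer1a, and Flt3 and Batf3. Gata2, Kit and the other dendritic cell genes had higher means, except Xcr1 and Itgae, which were mixed. List medians in wildtype and knockout cells were -0.21 and -0.14 for the mast cell and basophil genes. For the dendritic cell genes they were 0.11 and 0.10. Over all genes 1.34% rose in wildtype and 2.98% in knockout cells. Neutrophils and monocytes can carry several of the receptors described here, and the part of these shifts in the receptor values was not tested. In bulk RNA, fewer cells of a type and less RNA per cell cannot be told apart.

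Promoter sequence from RefSeq (build GRCm38.p6) was at hand for 6 of the 8 measured genes, in 13 windows of 250 bases that end just before an annotated transcription start. The single window of Gpr183, which rose with LPS in knockout cells, and the first of 2 windows of P2rx7, which did not pass the test, are shown because they differ in the letters searched for. Capitals in this P2rx7 window mark the motif matches. The Gpr183 window held none, and neither did the second P2rx7 window.
Gpr183, chr14:121965194-121965443, minus strand: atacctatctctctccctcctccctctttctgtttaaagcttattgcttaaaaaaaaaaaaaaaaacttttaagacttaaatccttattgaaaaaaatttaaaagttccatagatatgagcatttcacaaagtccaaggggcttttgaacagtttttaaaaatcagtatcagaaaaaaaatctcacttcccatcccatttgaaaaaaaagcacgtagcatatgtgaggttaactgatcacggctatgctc
P2rx7, chr5:122643677-122643926, plus strand: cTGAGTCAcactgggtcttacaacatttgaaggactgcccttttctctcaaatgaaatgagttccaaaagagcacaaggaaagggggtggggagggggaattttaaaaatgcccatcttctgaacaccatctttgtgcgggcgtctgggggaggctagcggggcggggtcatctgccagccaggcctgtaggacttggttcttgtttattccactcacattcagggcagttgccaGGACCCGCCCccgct
The first P2rx7 window held TGAGTCA, a match to the AP-1 motif TGANTCA, from base -249, and GGACCCGCCC, a match to the NF-kB motif on the opposite strand, from base -15, counted back from the start. Both strands were searched for these motifs and for the cyclic AMP response element TGACGTCA, the PU.1 motif GAGGAAG and the interferon-stimulated response element. Of 32851 promoter windows of this length, 45.8% held the NF-kB motif, 6.75% AP-1, 1.55% the cyclic AMP element, 10.6% PU.1 and 2.98% the interferon element, so the NF-kB letters alone are common. The single window of Gpr84 held no match either, while 1 or more windows of P2ry14, P2rx4 and Ffar2 did. The Gpr183 window was 32.0% G and C, and the first of P2rx7 was 53.6%. A match describes the letters of a window and is not a measurement of binding.

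The first question was how LPS moved these receptors within each genotype. In knockout cells 4 of the 8 genes passed the limma test at an adjusted p of 0.05: Gpr84, Hcar2 and Gpr183 rose and P2ry6 fell. Among all genes 5.91% passed there, 2.98% upward and 2.93% downward. In wildtype cells 0 of 8 passed with 10 samples, where 1.57% of all genes did, and 3 of 8 had an unadjusted p under 0.05, against 9.91% of all genes. With 12 separate samples 3 of 8 passed in wildtype cells, Gpr84, Hcar2 and P2ry6, where 8.64% of all genes did. With the replicate number as a fixed block on the 10 samples, 2 passed in wildtype cells, Gpr84 and Hcar2, and 4 in knockout cells, where 3% and 10.4% of all genes did. As a random block it gave 0 in wildtype and 4 in knockout cells, against 1.7% and 9.27%. The median LPS difference of the 8 genes was 0.12 in wildtype and 0.11 in knockout cells, against -0.01 and -0.00 for all genes, since increases and decreases were mixed. The plot of LPS differences sets both genotypes side by side.

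**Figure D1:**
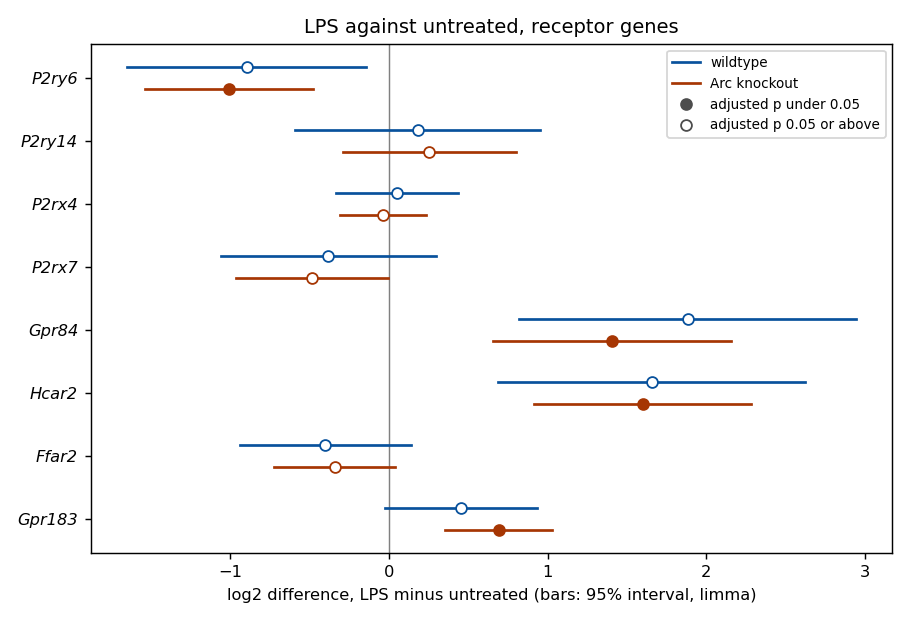
Log2 difference of LPS-treated minus untreated cells for the 8 measured receptor genes, in wildtype (blue) and Arc knockout cells (brown), from limma with 10 samples. Bars are 95% intervals and filled points have an adjusted p under 0.05; Gpr84 and Hcar2 lie farthest to the right in both genotypes and P2ry6 farthest to the left, and the filled points are the 4 genes called in knockout cells.

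P2ry6 encodes the P2Y receptor for UDP, which couples to calcium signalling and promotes phagocytosis and chemokine release. Its log2 signal was 9.90, 10.06 and 9.98 on the untreated wildtype arrays and 8.93, 9.24 and 9.08 after LPS. Knockout arrays had 9.69, 10.11 and 10.02 without LPS and 8.43, 9.56 and 8.81 with it. Every LPS array lay below every untreated array in both genotypes. The order of group means was untreated wildtype cells at 9.98 ± 0.08, untreated knockout cells at 9.94 ± 0.22, LPS-treated wildtype cells at 9.08 ± 0.16 and LPS-treated knockout cells at 8.93 ± 0.57 (SD, n = 3 arrays each), and the genotypes lay within their spread of each other at either treatment. Arrays of the groups did not overlap for 30.2% of all genes in wildtype and 25.1% in knockout cells, so separation alone was common. In knockout cells P2ry6 fell by 1.01 (SE 0.24, adjusted p = 0.0346), which is 2.01-fold lower. In wildtype cells the difference was -0.90 (SE 0.34, adjusted p = 0.3577), and with 12 samples, where its SE was 0.22, it passed with an adjusted p of 0.02367. The wildtype difference passed with array weights as well. The knockout call was lost without knockout untreated replicate 1, 2 or 3, without knockout LPS replicate 1 or 3, or without wildtype LPS replicate 3, at adjusted p between 0.05252 and 0.1271. It was also lost after a shift of array medians (0.05178), over all probe sets (0.06344) and with only the compared groups in the fit (0.07617). It held at -1.34 with a small RNA term (the 4 low arrays marked in the fit). Without these arrays, which leaves only replicate 1 in each LPS group, the knockout difference was -1.51.

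P2ry14 encodes a P2Y receptor for UDP-glucose and related sugars, known from chemotaxis of neutrophils and from stem cell stress. It showed no LPS difference beyond its spread. Its signal was 9.71, 9.74 and 9.66 in untreated and 9.70, 9.92 and 10.02 in LPS-treated wildtype cells. Knockout values were 9.49, 10.18 and 9.21 without and 9.81, 10.31 and 9.53 with LPS. The groups overlapped in both genotypes, and knockout replicate 2 was the highest array with and without LPS. The LPS difference was 0.18 (95% interval -0.59 to 0.95, adjusted p = 0.9789) in wildtype and 0.26 (-0.29 to 0.80, adjusted p = 0.6253) in knockout cells. From high to low the group means were LPS-treated knockout cells at 9.88 ± 0.40, LPS-treated wildtype cells at 9.88 ± 0.16, untreated wildtype cells at 9.70 ± 0.04 and untreated knockout cells at 9.63 ± 0.50 (SD, n = 3 arrays each), and the arrays of neighbours in this order overlapped.

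Neither ATP-gated channel gene passed the test. P2rx4, which opens at low ATP and sits largely in lysosomes of myeloid cells, had signals of 10.78, 10.85 and 10.80 in untreated and 10.77, 10.91 and 10.89 in LPS-treated wildtype cells. Its knockout values were 10.83, 10.59 and 10.98 without and 10.65, 10.76 and 10.89 with LPS. All 12 arrays thus lay within a narrow band, and the groups overlapped. Its means ranked LPS-treated wildtype cells at 10.86 ± 0.08, untreated wildtype cells at 10.81 ± 0.03, untreated knockout cells at 10.80 ± 0.19 and LPS-treated knockout cells at 10.76 ± 0.12 (SD, n = 3 arrays each), with no neighbours apart by more than their spread. The LPS difference was 0.05 (95% interval -0.33 to 0.43, adjusted p = 0.9896) in wildtype and -0.04 (-0.31 to 0.23, adjusted p = 0.9102) in knockout cells, the tightest intervals of the 8 genes.

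P2rx7, the channel that needs high ATP and gates the inflammasome, was at 8.19, 8.21 and 8.22 in untreated wildtype cells and at 7.58, 8.25 and 7.63 after LPS. Wildtype LPS replicate 2 therefore lay above every untreated array, and the other two lay below. In knockout cells P2rx7 was at 8.04, 8.07 and 8.55 without and 7.39, 8.00 and 7.81 with LPS, with no overlap. Ranked by mean, P2rx7 had untreated knockout cells at 8.22 ± 0.28, untreated wildtype cells at 8.20 ± 0.01, LPS-treated wildtype cells at 7.82 ± 0.37 and LPS-treated knockout cells at 7.73 ± 0.31 (SD, n = 3 arrays each), and the genotypes were not apart beyond their spread at either treatment. The difference was -0.38 (SE 0.31, adjusted p = 0.8507) in wildtype and -0.48 (SE 0.22, adjusted p = 0.2407) in knockout cells, and neither passed. With the small RNA term the knockout difference was -0.78 (adjusted p = 0.07457). Without those arrays, which leaves only replicate 1 in each LPS group, it was -0.82.

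**Figure D2:**
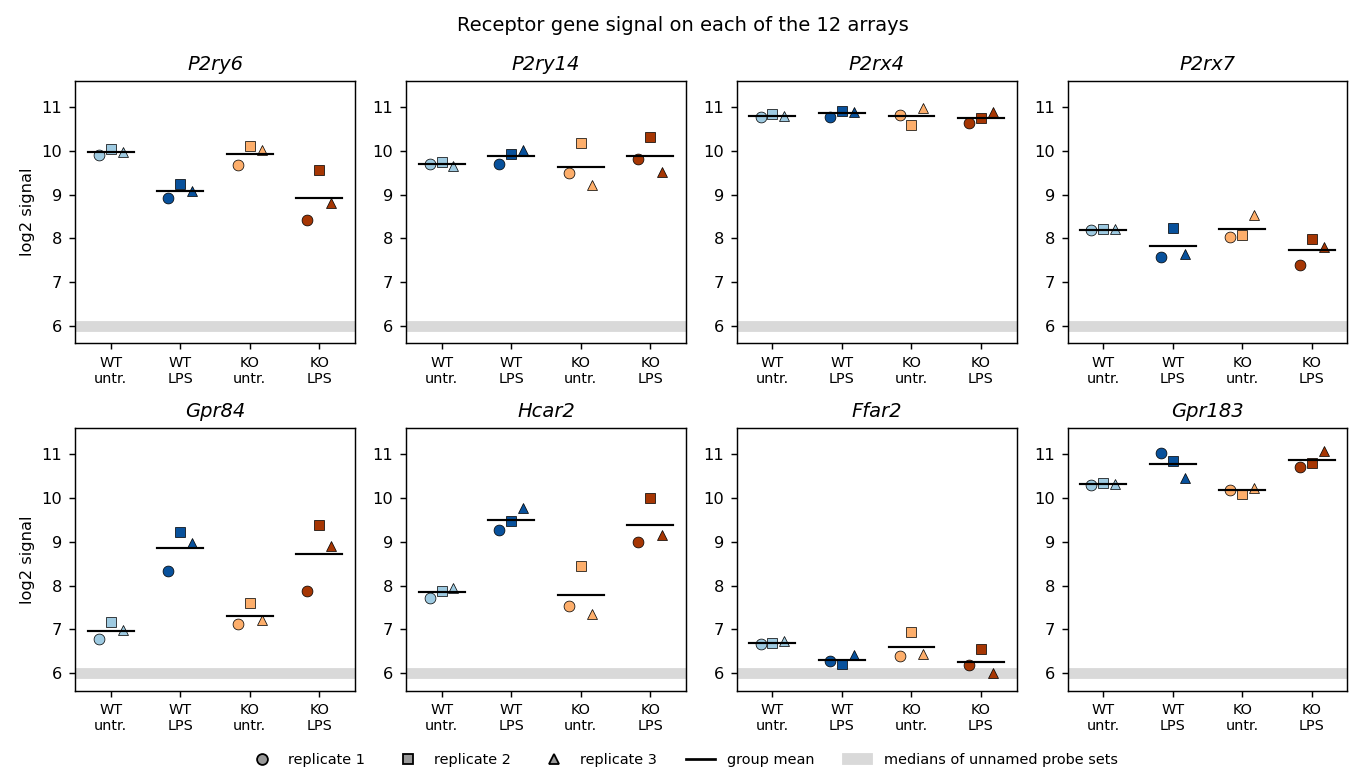
Log2 signal of each measured receptor gene on the 12 arrays, 3 per group, with a line at the group mean and symbols for replicate numbers; the grey band spans the arrays' medians of unnamed probe sets, 5.89 to 6.10. Gpr84 and Hcar2 stand higher and P2ry6 lower on every LPS array than on the untreated arrays of the same genotype, while P2rx4 hardly moves and Ffar2 sits close to the grey band.

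Gpr84 had the largest LPS difference of the 8 genes in wildtype cells. It encodes a receptor for medium-chain fatty acids that is found mainly on myeloid cells and is known to be induced by inflammatory stimuli. Its signal was 6.77, 7.16 and 6.98 in untreated and 8.34, 9.22 and 8.98 in LPS-treated wildtype cells. In knockout cells it was 7.12, 7.59 and 7.22 without and 7.88, 9.38 and 8.90 with LPS. Every LPS array was above every untreated one, but the LPS arrays of the knockout were spread over 1.51 log2 units. The means of Gpr84 ranked LPS-treated wildtype cells at 8.85 ± 0.46, LPS-treated knockout cells at 8.72 ± 0.77, untreated knockout cells at 7.31 ± 0.25 and untreated wildtype cells at 6.97 ± 0.20 (SD, n = 3 arrays each), where arrays overlapped between the genotypes and not between the treatments. The untreated level was low, with group means 0.89 (wildtype) and 1.37 (knockout) above the median of unnamed probe sets. Gpr84 rose by 1.41 in knockout cells (SE 0.34, adjusted p = 0.03613), or 2.65-fold. The wildtype difference was 1.88 (SE 0.48, adjusted p = 0.1017), or 3.69-fold, and passed with 12 samples at an adjusted p of 0.002255. With 10 samples it passed with the replicate number as a fixed block (0.005311, against 0.06357 as a random block), without the 3 arrays with Y-linked signal (0.02946), and without knockout LPS replicate 1 (0.01813) or 2 (0.04923). The wildtype difference passed with array weights as well. The knockout call was lost without knockout untreated replicate 1, 2 or 3, knockout LPS replicate 2 or 3, or wildtype LPS replicate 3, at adjusted p between 0.05367 and 0.1314, and without the arrays with Y-linked signal, at 1.22 (0.05834). It was also lost after a shift of array medians (0.05796), over all probe sets (0.06671) and with only the compared groups in the fit (0.05647). Among LPS arrays, Gpr84 was at 8.90 to 9.38 on the 4 arrays of low small RNA signal. On replicate 1 of wildtype LPS and of knockout LPS it was at 8.34 and 7.88. With the small RNA term the difference was 0.73 in knockout (adjusted p = 0.08341) and 1.21 in wildtype cells (adjusted p = 0.08914). Without those arrays, which leaves only replicate 1 in each LPS group, it was 0.57 and 1.37.

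Hcar2, the receptor for beta-hydroxybutyrate and the drug niacin, which lowers cyclic AMP, had signals of 7.71, 7.88 and 7.95 in untreated and 9.27, 9.47 and 9.78 in LPS-treated wildtype cells. In knockout cells it was at 7.54, 8.45 and 7.36 without and 8.99, 10.00 and 9.15 with LPS. The groups did not overlap in either genotype, and knockout replicate 2 was again the highest array with and without LPS. The means of Hcar2 ranked LPS-treated wildtype cells at 9.51 ± 0.25, LPS-treated knockout cells at 9.38 ± 0.54, untreated wildtype cells at 7.85 ± 0.12 and untreated knockout cells at 7.78 ± 0.59 (SD, n = 3 arrays each), and again arrays overlapped between the genotypes and not between the treatments. Hcar2 rose by 1.60 in knockout cells (SE 0.31, adjusted p = 0.01268), or 3.03-fold. In wildtype cells the difference was 1.66 (SE 0.44, adjusted p = 0.1171), and it passed with 12 samples at an adjusted p of 0.002689, with the replicate number as a fixed block at 0.02461 (0.09436 as a random block) and without the arrays with Y-linked signal at 0.005524, and with only the compared groups in the fit at 0.03388. The wildtype difference passed with array weights as well. The knockout call was lost without knockout untreated replicate 1 (adjusted p = 0.05399) or 3 (0.06053). It was also lost with the small RNA term, at 1.29 (adjusted p = 0.06492). Without those arrays, which leaves only replicate 1 in each LPS group, the knockout difference was 1.21.

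Ffar2, a receptor for acetate, propionate and butyrate that is strong on neutrophils, was close to the limit of detection. Its group means were 0.62 and 0.65 log2 units above the median of unnamed probe sets in untreated wildtype and knockout cells, and 0.32 and 0.24 above it after LPS. The signal was 6.66, 6.70 and 6.74 in untreated and 6.28, 6.20 and 6.41 in LPS-treated wildtype cells, without overlap. Among knockout arrays it was 6.38, 6.94 and 6.44 without and 6.19, 6.54 and 6.00 with LPS, and these overlapped. The means of Ffar2 ranked untreated wildtype cells at 6.70 ± 0.04, untreated knockout cells at 6.59 ± 0.31, LPS-treated wildtype cells at 6.30 ± 0.10 and LPS-treated knockout cells at 6.25 ± 0.27 (SD, n = 3 arrays each), and the genotypes lay within their spread of each other at either treatment. The difference of -0.40 (SE 0.24, adjusted p = 0.7228) in wildtype and -0.34 (SE 0.17, adjusted p = 0.3025) in knockout cells did not pass, apart from the knockout difference with array weights (-0.50, adjusted p = 0.02762).

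Gpr183, also called EBI2, guides B cells, T cells and dendritic cells along gradients of oxysterols. It was at 10.29, 10.36 and 10.32 in untreated and 11.02, 10.85 and 10.46 in LPS-treated wildtype cells. In knockout cells it was at 10.18, 10.10 and 10.24 without and 10.71, 10.81 and 11.08 with LPS. All LPS arrays were above the untreated arrays of their genotype, wildtype LPS replicate 3 only narrowly. The means of Gpr183 ranked LPS-treated knockout cells at 10.87 ± 0.19, LPS-treated wildtype cells at 10.78 ± 0.29, untreated wildtype cells at 10.32 ± 0.03 and untreated knockout cells at 10.17 ± 0.07 (SD, n = 3 arrays each), and the LPS-treated groups were within their spread of each other. Gpr183 rose by 0.69 in knockout cells (SE 0.15, adjusted p = 0.02409), or 1.62-fold, while the wildtype difference was 0.45 (SE 0.22, adjusted p = 0.5471) and missed the threshold with 12 samples too (adjusted p = 0.06355). The knockout call was lost without knockout untreated replicate 1, 2 or 3 or knockout LPS replicate 3, at adjusted p between 0.06953 and 0.1081. It was also lost with the small RNA term (0.74, adjusted p = 0.0518) and without the 3 arrays with Y-linked signal (0.69, adjusted p = 0.07294). Without the arrays of low small RNA signal, which leaves only replicate 1 in each LPS group, the knockout difference was 0.54.

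LPS over both genotypes, the mean of both LPS differences, was examined after the values were seen. Of the 8 receptor genes 4 passed in limma with 10 samples, where 6.22% of all genes did. Hcar2 rose by 1.63 (adjusted p = 0.004045), Gpr84 by 1.65 (adjusted p = 0.00654) and Gpr183 by 0.57 (adjusted p = 0.02632), and P2ry6 fell by 0.95 (adjusted p = 0.01994). Ffar2 differed by -0.37 (adjusted p = 0.2196) and P2rx7 by -0.43 (adjusted p = 0.2568). With 12 samples 5 of 8 passed, Ffar2 included (adjusted p = 0.04079), where 14.5% of all genes did. P2rx7 passed with 12 samples and the replicate number as a block (adjusted p = 0.03172). Of 12 other nucleotide and adenosine receptor genes, 2 rose and 1 fell in this contrast. Of 22 other metabolite and lipid receptor genes, 2 rose and 4 fell, and genes of other lists described below passed too. Among these, the adenosine receptor gene Adora3 fell by 0.47 (adjusted p = 0.02704). The sphingosine 1-phosphate receptor gene S1pr3 rose by 0.99 (adjusted p = 0.02804). Neither passed within a genotype in the main setting. S1pr3 passed in 6 of 28 other settings in wildtype and 5 of 28 in knockout cells. Adora3 passed in 3 of 27 and 2 of 27. S1pr3 arrays overlapped in knockout cells, where untreated replicate 2 was at 9.16 and LPS replicates 1 and 3 at 9.03 and 9.02.

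The second question was whether loss of Arc altered these receptors. Arc itself was 1.48 lower in untreated knockout cells, yet it did not pass the main test there. It did pass in LPS-treated cells and over both treatments. A receptor gene that did not pass in untreated cells can therefore still differ. No receptor gene passed in untreated cells, in LPS-treated cells, or over both treatments, where 0.00451%, 0.00902% and 0.0135% of all genes passed in limma with 10 samples. At an unadjusted p under 0.05 there were 0 of 8 receptor genes in each of these comparisons, against 897, 877 and 732 of all 22180 genes. The largest difference in untreated cells was that of Gpr84, 0.34 higher in knockout cells (SE 0.48, 95% interval -0.72 to 1.41, adjusted p = 0.9697). Gpr183 was the receptor gene whose untreated arrays did not overlap between genotypes, at 10.10 to 10.24 in knockout and 10.29 to 10.36 in wildtype cells, which was so for 29.3% of all genes. Its difference was -0.15 (95% interval -0.63 to 0.33, adjusted p = 0.9697).

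After LPS the genotype differences of the 8 genes ran from -0.15 for P2ry6 (95% interval -0.68 to 0.38) to 0.09 for Gpr183 (-0.25 to 0.43), and the arrays overlapped for each gene, while those of 7.78% of all genes did not. The genotype by LPS interaction passed for 0 of 8 receptor genes and for 0% of all genes, with 982 genes at an unadjusted p under 0.05. The largest interaction was that of Gpr84, -0.48 (SE 0.59, 95% interval -1.77 to 0.82, adjusted p = 0.9478), so the LPS differences of the genotypes were not shown to differ. The intervals set how much could be seen. Half-widths for the 8 genes ran from 0.38 to 1.06 log2 units in untreated and from 0.27 to 0.75 in LPS-treated cells, widest for Gpr84 and narrowest for P2rx4, as the plot of genotype differences shows.

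**Figure D3:**
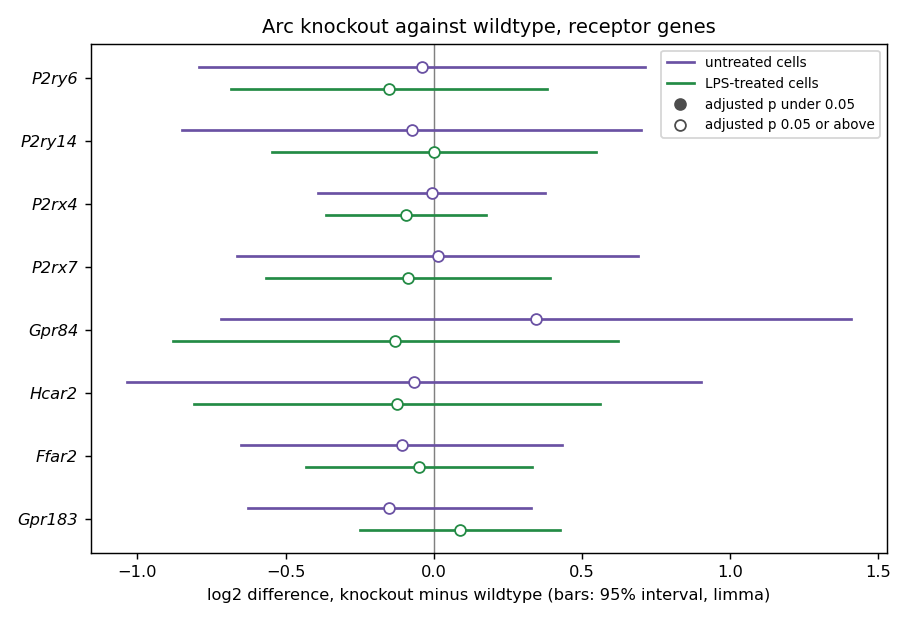
Log2 difference of Arc knockout minus wildtype cells for the 8 measured receptor genes, in untreated (purple) and LPS-treated cells (green), from limma with 10 samples. Bars are 95% intervals; every interval spans 0 and every point is open, that is, with an adjusted p of 0.05 or above.

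Within groups, several of these receptors varied together from array to array. The within-group deviations of Hcar2 and P2ry14 had Pearson r = 0.92 over the 12 arrays, those of Hcar2 and Ffar2 0.91, those of P2ry14 and Ffar2 0.92 and those of P2ry6 and Gpr84 0.88. These are descriptions, since the genes share the same RNA on each array. Knockout LPS replicate 2 held the highest value of its group for 6 of the 8 genes and knockout LPS replicate 1 the lowest for 6, while knockout untreated replicate 2 was highest for 5. Both replicate 2 arrays of the knockout carried Y-linked signal, and so did wildtype LPS replicate 1, which was the lowest of its group for 6 of the 8 genes and the highest for 1. Gpr183 did not follow, with r = -0.40 against Hcar2 and -0.04 against Gpr84. The map of deviations shows these arrays as red and blue columns.

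**Figure D4:**
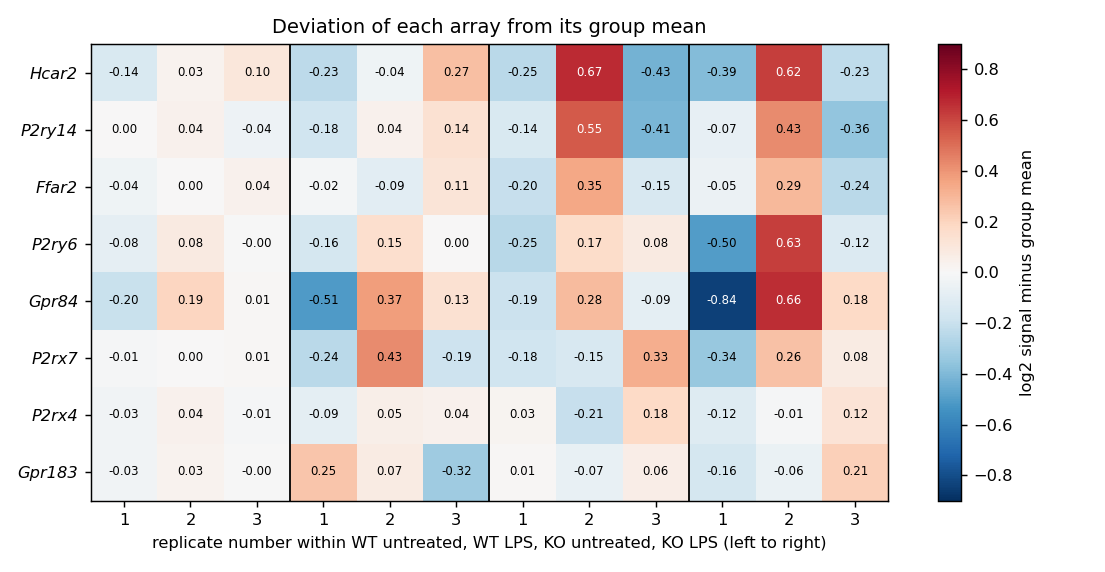
Deviation of each array's log2 signal from the mean of its group for the 8 receptor genes, 12 arrays in 4 groups divided by black lines; red is above and blue below the group mean. Knockout replicate 2 stands out in red for Hcar2, P2ry14, Ffar2, P2ry6 and Gpr84 both with and without LPS, and the untreated wildtype arrays are pale.

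Genes around the receptors were taken from 6 lists of 94 symbols, of which 86 were measured: other nucleotide and adenosine receptors, nucleotide release and turnover, other metabolite and lipid receptors, oxysterol enzymes, G proteins with cyclic AMP signalling and receptor desensitisation, and the inflammasome that P2X7 feeds. In knockout cells 8 of the 86 rose with LPS and 4 fell, and in wildtype cells 4 rose and 0 fell. The shares over all genes were 2.98% upward and 2.93% downward in knockout cells, and 1.34% upward and 0.234% downward in wildtype cells. As the wildtype test was less precise, these counts do not compare the genotypes. Medians of the 6 lists ran from -0.09 to 0.05 in wildtype and from -0.35 to 0.01 in knockout cells, lowest for the other nucleotide and adenosine receptors in wildtype and for the inflammasome list in knockout cells, against -0.01 and -0.00 for all genes. The plot of pathway lists marks the genes that passed.

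**Figure D5:**
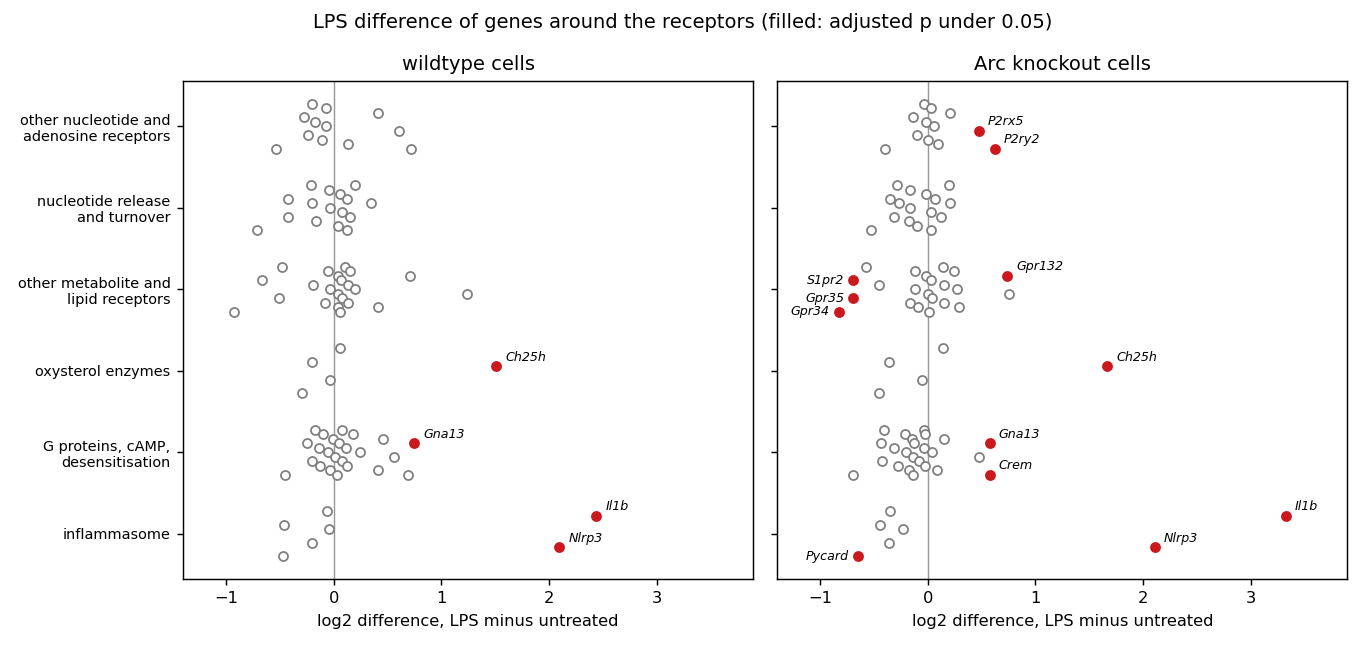
Log2 difference of LPS-treated minus untreated cells for 86 genes in 6 lists, wildtype on the left and Arc knockout on the right; each point is a gene, its height within a list has no meaning, and filled red points passed at an adjusted p of 0.05 (limma, 10 samples). Il1b, Nlrp3 and Ch25h lie farthest to the right in both genotypes, and the turnover list has no filled point.

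Of 12 other nucleotide and adenosine receptors, 2 rose in knockout cells and 0 passed in wildtype cells. P2ry2, the P2Y receptor for ATP and UTP, was at 6.73, 6.48 and 6.55 in untreated and 6.87, 7.58 and 7.18 in LPS-treated knockout cells and rose by 0.62 (SE 0.16, adjusted p = 0.04804). P2rx5, another ATP-gated channel, went from 9.83, 10.02 and 9.96 to 10.30, 10.55 and 10.39 and rose by 0.47 (SE 0.12, adjusted p = 0.04645). Both calls were close to the threshold and held in 13 of 28 other settings each. The wildtype differences were 0.60 for P2ry2 (adjusted p = 0.3485) and 0.72 for P2rx5 (adjusted p = 0.07673), which passed in 3 and 7 of 28 other settings. None of the 16 measured genes for nucleotide release and turnover passed in either genotype. Among these, Entpd1 (CD39), which removes phosphates from ATP and ADP, had differences of -0.42 in wildtype and -0.35 in knockout cells, and Nt5e (CD73), which makes adenosine from AMP, -0.20 and -0.31. The adjusted p was 0.8975 and 0.539 for Entpd1 and 0.9472 and 0.3365 for Nt5e.

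Of 22 other metabolite and lipid receptors, 1 rose and 3 fell in knockout cells and 0 passed in wildtype cells. Gpr132, a G protein-coupled receptor that responds to oxidised fatty acids and to acid, rose by 0.74 (SE 0.15, adjusted p = 0.01795), from 10.44, 10.12 and 10.65 to 10.97, 11.25 and 11.20. Gpr34, a lysophosphatidylserine receptor, fell by 0.83 (SE 0.16, adjusted p = 0.01164), S1pr2, a sphingosine 1-phosphate receptor, fell by 0.69 (SE 0.13, adjusted p = 0.01055), and Gpr35 fell by 0.69 (SE 0.14, adjusted p = 0.01511). The direction was the same in wildtype cells, where Gpr34 differed by -0.93, Gpr35 by -0.67, S1pr2 by -0.48 and Gpr132 by 0.71, all short of the threshold with 10 samples and past it with 12. Of 28 other settings, the knockout calls held in 26 for S1pr2, 25 for Gpr34, 24 for Gpr35 and 22 for Gpr132.

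The oxysterol enzymes bear on Gpr183, since its ligand is made from cholesterol by cholesterol 25-hydroxylase (Ch25h) and then Cyp7b1, and is broken down by Hsd3b7. Ch25h rose with LPS in both genotypes. Its signal was 7.05, 7.13 and 7.07 in untreated and 8.69, 8.54 and 8.54 in LPS-treated wildtype cells, a rise of 1.51 (SE 0.19, adjusted p = 0.002595). In knockout cells it went from 7.40, 7.09 and 6.98 to 8.71, 8.77 and 8.98, a rise of 1.66 (SE 0.13, adjusted p = 4.892e-05), or 3.17-fold. This knockout call held in all 28 other settings, unlike that of Gpr183. The other 4 genes of the list did not pass. Cyp7b1 had group means of 5.66 to 5.80, below the medians of unnamed probe sets (5.89 to 6.10), so its signal was not above background. Its differences were -0.04 in wildtype and 0.14 in knockout cells, and those of Hsd3b7 -0.29 and -0.37.

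Of 24 genes for G proteins, cyclic AMP signalling and desensitisation, 1 rose in wildtype and 2 rose in knockout cells, and 0 fell. Gna13, which encodes a G protein alpha subunit, rose by 0.75 in wildtype (SE 0.15, adjusted p = 0.04393) and by 0.58 in knockout cells (SE 0.11, adjusted p = 0.01151). Of 28 other settings the wildtype call held in 12 and the knockout call in 24. Crem, a cyclic AMP-responsive transcription factor with repressor isoforms, rose by 0.58 in knockout cells (SE 0.11, adjusted p = 0.01126) and differed by 0.69 in wildtype cells (adjusted p = 0.05869). Its knockout call held in 24 of 28 other settings, and its wildtype difference passed in 8. Gnai2 and Gnai3, the Gi subunits through which HCAR2 and GPR84 signal, differed by -0.01 and 0.18 in wildtype and -0.13 and -0.02 in knockout cells, with no call.

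In the inflammasome list of 7 genes, Nlrp3 and Il1b rose in both genotypes. Nlrp3, the sensor that P2X7 activity triggers, rose by 2.10 in wildtype (SE 0.32, adjusted p = 0.008644) and 2.11 in knockout cells (SE 0.22, adjusted p = 0.0003479). Il1b, the cytokine released after its activation, rose by 2.44 (SE 0.39, adjusted p = 0.01306) and 3.32 (SE 0.28, adjusted p = 7.664e-05), from 10.58, 9.15 and 9.52 to 13.07, 13.10 and 13.05 in knockout cells. Pycard, the adaptor ASC, fell by 0.65 in knockout cells (SE 0.15, adjusted p = 0.02635) and differed by -0.47 in wildtype cells. Its knockout call held in 21 of 28 other settings, and its wildtype difference passed in 2. The channel P2rx7 itself, described above, did not pass in either genotype.

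For each receptor gene, the 3 genes with the most similar profile over the 12 arrays were named among 10289 genes of above-median signal, with predicted and small RNA genes left out. Gpr84 was most like Ralgds, Dcstamp and Agfg1 (Pearson r of 0.99 each) and Hcar2 like Gas2l3, Trem1 and Hspa5 (0.99, 0.99 and 0.98). P2ry6 was most like Cd84, Gpr141 and Dipk1a (0.98 each) and P2rx7 like Pld3, Aoah and Pign (0.95, 0.94 and 0.94). The remaining profiles had looser matches: Gpr183 with Cdk5r1, Rhof and Ifit1 (0.93, 0.92 and 0.92), P2ry14 with Ccnd1, Gpr171 and Mcm10 (0.93, 0.89 and 0.88), Ffar2 with Tnfaip8l3, Cd93 and Rgs18 (0.92, 0.90 and 0.89) and P2rx4 with Ldlrad4, Rbak and Adam19 (0.86 each). These correlations follow both the LPS difference and the shared spread of arrays, and they describe these 12 arrays only.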

How the data were processed

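Gene expression was measured on 12 arrays, and the values used are the log2 signals per probe set that the authors deposited. How the authors corrected and normalized them is a step that no source used here gives, and limma is the tool in the submitters' processing notes. The platform annotation gave 23521 of 34390 probe sets 1 gene, 1814 several and 9055 none. For the 1082 genes with several probe sets the one with the highest mean over all arrays was kept.

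Differences were fitted with limma 3.58.1 in R 4.3.3, with 1 mean per group over all 4 groups, empirical Bayes moderation, two-sided tests and Benjamini-Hochberg adjustment over 22180 genes, and the threshold was an adjusted p of 0.05. The script was tested on simulated data. The 3 untreated wildtype arrays were counted as 1 sample, as in an earlier analysis, and that lone sample is assumed to vary like the other groups. Arrays of one replicate number deviated together in the other 3 groups, with r of 0.38, 0.30 and 0.20 between untreated and LPS-treated knockout arrays, 0.34, 0.36 and 0.23 between the LPS-treated groups and 0.14, 0.20 and 0.18 between wildtype LPS and knockout untreated arrays. Untreated wildtype arrays gave r from -0.05 to 0.11. The numbers were therefore taken as a block in some of the other settings, but not in the main one. Only arrays of the same number were compared, and the arrays of low small RNA signal had numbers 2 and 3 in both LPS groups. Y-linked signal was on replicate 1 of wildtype LPS but on replicate 2 of both knockout groups. Whether the numbers pair cultures was not tested. Besides the main setting, 28 others were run, 12 of which left out 1 array. The array weights estimate stopped before convergence. The contrast of LPS over both genotypes was added after values were seen.

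The receptor genes and lists were chosen with earlier results of these data known. Named were every measured receptor gene, Arc, up to 4 genes per list and comparison past the threshold by size of difference, and the 3 genes most like each receptor gene. Genes named outside that rule (Entpd1, Nt5e, Cyp7b1, Hsd3b7, Gnai2, Gnai3, Xist, neighbouring genes and cell markers) were chosen after their values were seen. Promoter windows came from RefSeq, and gene order in the closing section from its GRCm38.p6 table.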

Additional observations from a re-analysis of the deposited data

How the results depend on the processing

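The number of receptor genes called depended on the setting, while no called difference turned its direction. In wildtype cells LPS called 0 of 8 genes, and 3 with 12 separate samples, 3 with array weights, 2 without the arrays with Y-linked signal and 1 with only the compared groups in the fit. With the replicate block, which takes the replicate number as a fixed term, 2 passed with 10 samples and 3 with 12, and as a random block 0 passed with 10. Leaving out 1 array gave 0 to 1. In knockout cells 4 were called, and 2 after a shift of array medians, 2 over all probe sets and 2 with only the compared groups. There were 2 without the arrays with Y-linked signal and 1 with the small RNA term. Dropping the 4 arrays of low small RNA signal leaves only replicate 1 in each LPS group, so no count is given for it. Leaving out 1 array gave 0 to 4. The replicate block ended no knockout call. Over both genotypes 4 were called, 2 with the small RNA term, 5 with 12 samples, 6 with 12 samples and the replicate block, and 2 to 4 with 1 array left out. The genotype comparisons and the interaction called 0 receptor genes in every setting that was run. Over all genes, the count with LPS ran from 76 to 2437 around 349 in wildtype and from 562 to 4698 around 1311 in knockout cells, and from 694 to 4747 around 1380 over both genotypes. For genotype it ran from 1 to 257 around 1 in untreated cells, from 1 to 15 around 2 in LPS-treated cells and from 1 to 39 around 3 over both treatments, and for the interaction from 0 to 280 around 0. Apart from settings that use fewer or other samples or test more probe sets, the cause was not tested. The number of arrays limits the precision, and Ffar2 and untreated Gpr84 lay near the background signal. So did untreated P2ry2, with group means of 6.63 in wildtype and 6.58 in knockout cells. Adora3 after LPS was also near it, at 6.05 in wildtype and 6.10 in knockout cells. Cyp7b1 lay below it, with group means of 5.66 to 5.80.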

Other observations

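Several receptor genes lie next to related genes, and their profiles over the 12 arrays were set side by side as a description. P2ry14 followed its neighbours Gpr171 (Pearson r = 0.89 over all arrays, 0.94 within groups), P2ry12 (0.77 and 0.89) and P2ry13 (0.59 and 0.76). Gpr183 ran opposite to its neighbour Gpr18, with r = -0.85 over all arrays and -0.38 within groups. P2ry6 and its neighbour P2ry2, which respond to different nucleotides, had r = -0.63 over all arrays and 0.67 within groups. The adjacent channel genes P2rx4 and P2rx7 had r = 0.43 and 0.61. Hcar2 and Hcar1 had r = -0.23 and -0.14, Ffar2 and Ffar3 -0.16 and -0.05, and Ffar2 and Ffar1 -0.34 and -0.23. Ffar3, at a mean of 5.31, lay below the medians of unnamed probe sets (5.89 to 6.10). Ffar1 (6.44), Ffar2 (6.46) and Hcar1 (6.52) were near them, so the r values of these pairs say little. All of these genes share the same RNA on each array.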
